A study of Mus musculus with 5 samples.

Results

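The planar cell polarity genes that act in neural tube closure were followed in whole mouse embryos with and without the folate receptor gene Folr1. They are 10 genes chosen by symbol (Vangl1, Vangl2, Celsr1, Scrib, Ptk7, Fzd3, Fzd6, Dvl1, Dvl2 and Prickle1), and all 10 were on the array, with 16 of the 20380 probe sets that carry 1 gene symbol. For each gene the probe set of highest mean signal stands for it. After the filter on dim genes, 9 of the 10 were among the 7436 genes tested, and Ptk7 was not.

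The study compared 3 arrays of wild-type (Folr1+/+) embryos with 2 arrays of knockout (Folr1-/-) embryos, all C57BL6J, at gestation day 9.5. The knockout embryos came from Folr1+/- parents, and their dams ate a folate-supplemented diet before mating and through gestation. Whether the dams of the wild-type embryos had the same diet is not stated separately, so an effect of diet and one of genotype cannot be told apart if they differed. The sample titles name the arrays as biological replicates. It is not stated whether each array holds RNA of 1 embryo or of several, so p-values rest on the spread among these 5 arrays. In the limma fits the spread of each gene is drawn toward that of genes of like signal.

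Planar cell polarity is the alignment of cells within the plane of an epithelium. It is set up by membrane complexes on opposite faces of neighbouring cells: a Frizzled receptor with Dishevelled on one face, Vangl with Prickle on the other, and the atypical cadherin Celsr bridging both. In the neural plate the pathway drives the narrowing and lengthening of the midline that brings the neural folds close together. Mouse embryos that lack Vangl2, Celsr1, Scrib or Ptk7, or that lack Fzd3 together with Fzd6 or Dvl1 together with Dvl2, fail to close the neural tube along most of its length.

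Of the 9 genes tested, Fzd3 fell in the knockout arrays and the other 8 did not pass the threshold (limma, adjusted p under 0.05). Over all 7436 genes, 15% passed, 6.79% lower and 8.19% higher in the knockout arrays, so 1 of 9 is near the background. Of the genes that passed, 505 were lower and 609 higher, and with each array centred on its median 341 were lower and 769 higher. Knockout and wild-type values did not overlap in 4 of the 9 genes, Fzd3 and Scrib lower and Vangl1 and Prickle1 higher, against 46.7% of all genes tested. The median log2 fold change of the 9 genes was -0.15, within a range of -0.68 to 0.39, and that of all genes tested was -0.02. The median size of the change, without its sign, was 0.25 in the 9 genes and 0.26 in all genes tested. Whole embryos were measured, so fewer cells of a type and less RNA per cell cannot be told apart.

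**Figure D1:**
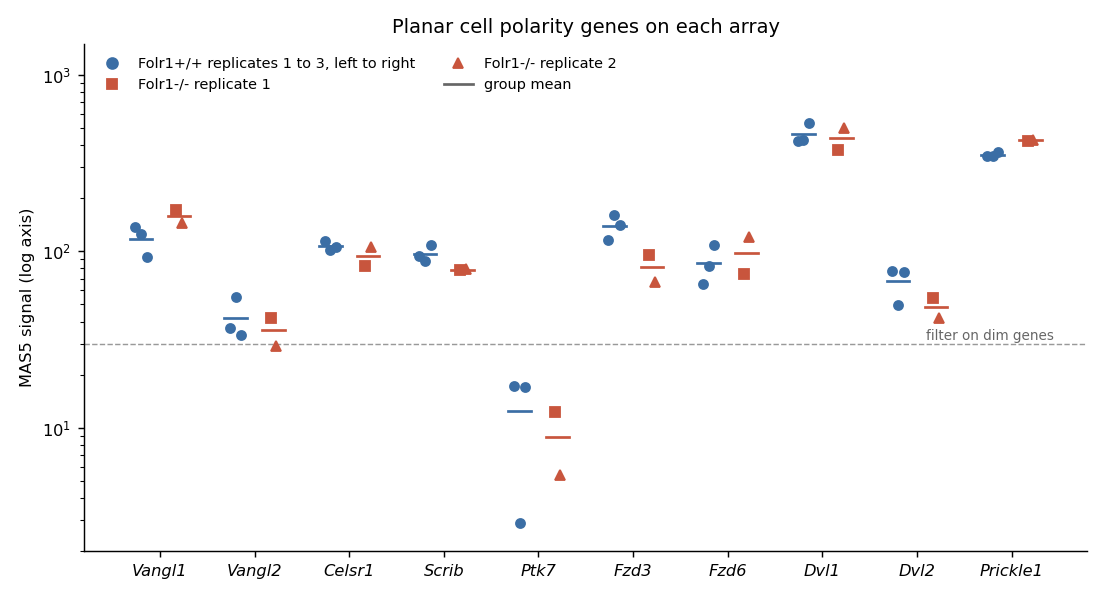
MAS5 signal (log axis) of the 10 planar cell polarity genes on each of the 5 arrays, with circles for the wild-type arrays, a square and a triangle for the 2 knockout arrays and short lines for group means. Both knockout arrays lie below all wild-type arrays for Fzd3 and Scrib and above them for Vangl1 and Prickle1, and Ptk7 lies under the dashed line that marks the filter on dim genes.

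Fzd3 encodes a Frizzled receptor that recruits Dishevelled to the membrane and also guides axon tracts. Its signal was 116, 162 and 140.3 in the wild-type arrays (139 ± 22.8, SD, n = 3) and 95.3 and 67.2 in the knockout arrays (81.3 ± 19.9, SD, n = 2). Both knockout arrays were thus below every wild-type array, and knockout replicate 2 was the lower of them. The log2 fold change, taken on log2(signal + 16) throughout, was -0.68 ± 0.20 (SE), with a 95% interval of -1.12 to -0.24 and a limma adjusted p of 0.0406. That is 0.62 times the wild-type level on the signal + 16 scale. The change ranked 373rd from the lowest of the 7436 fold changes, at the 5.02th percentile.

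Fzd3 had 4 probe sets, and the 3 bright ones were all lower in both knockout arrays. The probe set 1450135_at represents the gene above. The second, 1449730_s_at, had signals of 121, 145 and 126 in the wild-type arrays and 52.6 and 68.9 in the knockout arrays (-0.94 ± 0.18, SE). On 1421157_at they were 75.8, 109 and 82.5 against 49.03 and 39.3 (-0.80 ± 0.21). The last, 1420087_at, was listed between 0.993 and 5.55 on all 5 arrays, far under the filter, and is no measure of change. The platform annotation gives 1450135_at and 1421157_at the same source sequence, and 1449730_s_at that of 1420087_at. The bright probe sets are thus not fully independent measures of Fzd3. Which knockout array was lower differed between probe sets: replicate 2 on 1450135_at and 1421157_at, replicate 1 on 1449730_s_at. When all 20380 probe sets were tested with no filter, 4.2% passed, and of the 16 probe sets of these genes 1 did, 1449730_s_at (limma adjusted p = 0.0308). There 1421157_at and 1450135_at had adjusted p values of 0.0862 and 0.116.

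The call of Fzd3 lay close to the threshold. It was lost without either knockout array (-0.89, adjusted p = 0.0765, without replicate 1 and -0.47, adjusted p = 0.277, without replicate 2). It was also lost without wild-type replicate 2 (-0.58, adjusted p = 0.0933) and wild-type replicate 3 (-0.67, adjusted p = 0.114), and was kept without wild-type replicate 1 (-0.79, adjusted p = 0.0318). The fold change was below 0 in all 17 other settings tried, between -0.89 and -0.47, and passed in 10 of them. Of these settings, the replicate block and the fit without wild-type replicate 3 give the same fold change (-0.67). The filter settings, no trend and no sex-linked genes cannot change the fold change of Fzd3, which stayed at -0.68 there. Its sign in those settings is no further result.

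**Figure D2:**
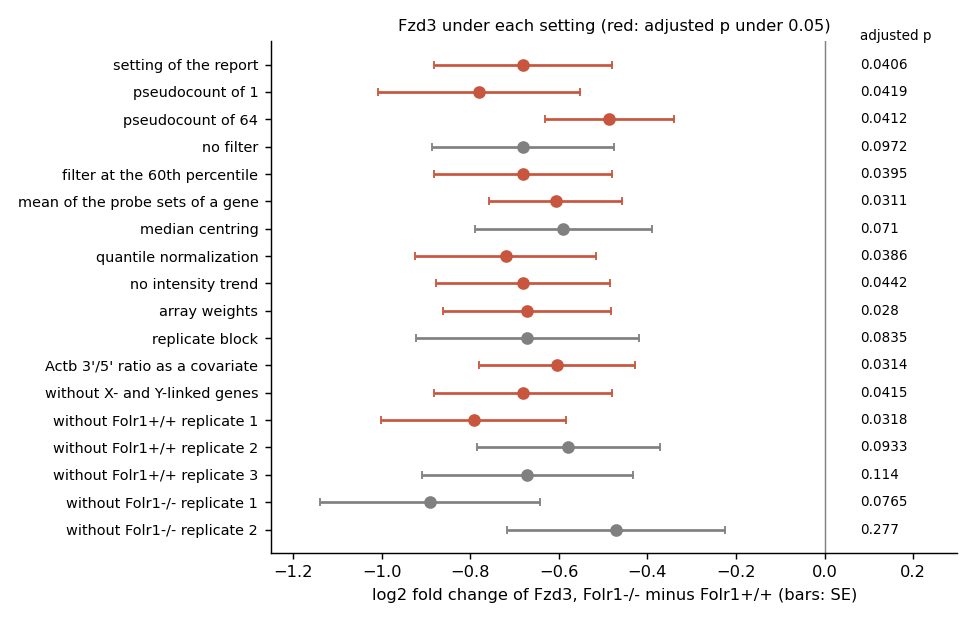
Log2 fold change of Fzd3 (points, with the SE as bars) under the setting of the report and 17 others, with the limma adjusted p of each at the right and red marking those under 0.05. All points lie below 0, and the calls lost include those without either knockout array.

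Fzd6, the closest Frizzled relative of Fzd3, did not pass. Its signal was 65.6, 82.3 and 108 in the wild-type arrays and 74.2 and 120.6 in the knockout arrays, with a log2 fold change of 0.15 ± 0.24 (SE; 95% interval -0.36 to 0.67; limma adjusted p = 0.707). The knockout arrays lay on either side of the wild-type mean, replicate 1 at -0.15 and replicate 2 at 0.45 from it on the log2 scale. Its second probe set, 1448662_at, was dim, with group means of 9.82 in the wild-type and 7.65 in the knockout arrays. The log2 ratio of Fzd3 to Fzd6 within an array was 0.70, 0.85 and 0.33 in the wild-type arrays and 0.30 and -0.72 in the knockout arrays. The ratio thus changed by -0.83 between the groups (exact permutation test, 2-sided, p = 0.1, adjusted over 3 pairs 0.3). This is the smallest p that 3 against 2 arrays allow, so no unequal change of the pair could pass at 0.05.

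Celsr1, the cadherin that links the complexes of neighbouring cells, had signals of 115, 101 and 106 in the wild-type arrays and 82.2 and 106 in the knockout arrays. Knockout replicate 1 was the lowest array, and replicate 2 lay within the wild-type range. The log2 fold change was -0.17 ± 0.18 (SE), with an adjusted p of 0.577. Its 95% interval ran from -0.56 to 0.23.

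Dishevelled proteins carry the signal from Frizzled into the cell. Dvl1 gave 424, 431 and 538 in the wild-type arrays and 374 and 501 in the knockout arrays, which bracket 2 of the 3 wild-type values. The fold change was -0.09 ± 0.18 (SE; 95% interval -0.47 to 0.30; adjusted p = 0.774), and its sign was not stable, at 0.12 without knockout replicate 1 and 0.0028 with median centring. A second Dvl1 probe set, 1450978_at, was 130.3, 133 and 136 in the wild-type arrays, 110.1 in knockout replicate 1 and 187 in replicate 2. On both Dvl1 probe sets knockout replicate 1 was the lowest array, and on 1450978_at replicate 2 was the highest. Dvl2 gave 77.4, 49.9 and 76.5 in the wild-type arrays and 54.1 and 42.04 in the knockout arrays. Its fold change of -0.38 ± 0.22 (SE; 95% interval -0.85 to 0.10; adjusted p = 0.271) was the second lowest of the 9, and the groups overlapped through wild-type replicate 2. The second probe set of Dvl2, 1448616_at, was listed between 0.411 and 2.39 on all arrays. The Dvl1 to Dvl2 ratio within an array changed by 0.29 (exact permutation test, p = 0.5), and by -0.052 without knockout replicate 2.

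Vangl proteins are the membrane partners that face Frizzled across the cell border. Vangl1 had signals of 137, 125 and 92.5 in the wild-type arrays and 172 and 145 in the knockout arrays, the groups apart by a small margin. Its fold change was the highest of the 9, 0.39 ± 0.19 (SE; 95% interval -0.03 to 0.82), and did not pass (adjusted p = 0.2). Vangl2, the gene of the loop-tail mutant, is dimmer on this array, with signals of 36.8, 54.9 and 33.4 in the wild-type and 41.95 and 29.2 in the knockout arrays. These overlapped, with a fold change of -0.15 ± 0.23 (SE; 95% interval -0.66 to 0.35; adjusted p = 0.698), and at 0.025 without knockout replicate 2 and 0.0040 without wild-type replicate 2 the sign turned. The Vangl1 to Vangl2 ratio changed by 0.55 (exact permutation test, p = 0.2, adjusted over 3 pairs 0.3).

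Prickle1 encodes the cytoplasmic partner of Vangl. Its values were the tightest of the set, 347, 349 and 365 in the wild-type arrays (354 ± 9.44, SD, n = 3) and 423 and 429 in the knockout arrays (426 ± 4.26, SD, n = 2). The groups did not overlap, and the gap between them was wider than the spread within either. The fold change was nevertheless 0.26 ± 0.15 (SE; 95% interval -0.06 to 0.57), with a limma adjusted p of 0.257. Limma draws the spread of a gene toward that of genes of like signal, and so used a larger spread here than these 5 arrays show. It stayed between 0.22 and 0.35 over the other settings, with 0 calls.

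Scrib encodes a scaffold protein that binds Vangl and also marks the basolateral side of epithelial cells. Its signal was 93.9, 88.7 and 109 in the wild-type arrays and 77.9 and 79.8 in the knockout arrays. The knockout arrays nearly coincided and lay below all wild-type arrays, with a fold change of -0.25 ± 0.18 (SE; 95% interval -0.64 to 0.14; adjusted p = 0.380). Ptk7, a receptor with an inactive kinase domain, could not be assessed: its signals were 17.3, 2.87 and 17.1 against 12.2 and 5.39, at the 19.1th percentile of all genes. With no filter its fold change was -0.16 ± 0.28 (SE; 95% interval -0.82 to 0.49).

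**Figure D3:**
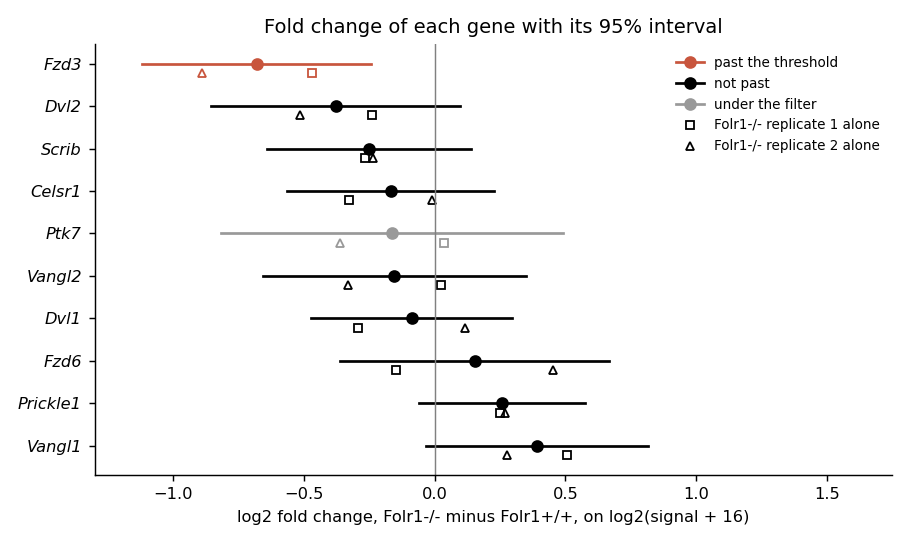
Log2 fold change (knockout minus wild type) of each gene with its 95% interval, and, as open symbols, each knockout array alone against the wild-type mean. The interval of Fzd3 (-1.12 to -0.24) is the one that does not reach 0, and the knockout arrays fall on opposite sides of 0 for Dvl1, Fzd6, Vangl2 and the dim Ptk7.

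The genes did not move together. Of the 9, 6 had a lower and 3 a higher mean in the knockout arrays, and with median centring 5 were lower. Knockout replicate 1 was the lowest of all arrays for 3 genes (Celsr1, Scrib and Dvl1) and knockout replicate 2 for 3 others (Fzd3, Dvl2 and Vangl2). The knockout arrays lay on opposite sides of the wild-type mean for 3 genes. In 2 genes, Celsr1 and Dvl1, they differed from each other by more than the range of the wild-type arrays. The median distance of the 9 genes from the wild-type mean was -0.24 in knockout replicate 1 and -0.01 in replicate 2, on the log2 scale. Their summed signal was 1413 to 1568 in the wild-type and 1395 and 1520 in the knockout arrays, which overlap.

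**Figure D4:**
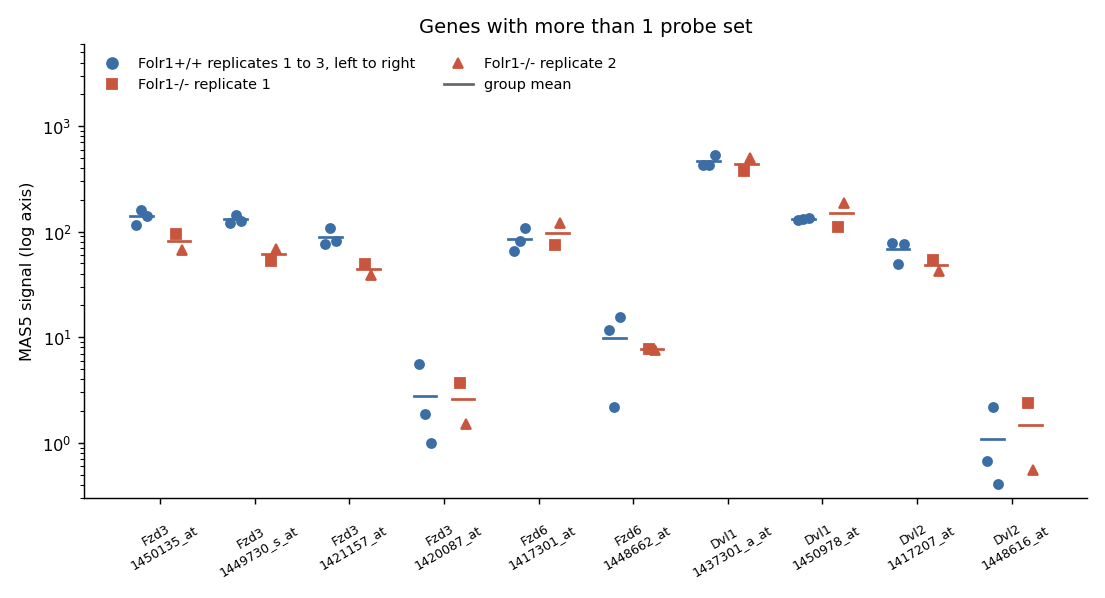
MAS5 signal (log axis) of every probe set of the 4 genes with more than 1 probe set, symbols as in the plot of signals by gene. The 3 bright Fzd3 probe sets are lower in both knockout arrays, while each of Fzd3, Fzd6 and Dvl2 has a dim probe set that shows no order.

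Other genes of the pathway were read from lists by role, chosen with earlier results of these data known. The share to set beside each count is the 15% of all genes tested that passed, 6.79% lower and 8.19% higher. Of the paralogues of the core proteins, 7 of 11 on the array were tested, and 3 fell, 0 rose and 4 did not pass (median -0.38). The first was Celsr2, a relative of Celsr1, with signals of 98.0, 110 and 147 in the wild-type and 52.1 and 57.2 in the knockout arrays (-0.91 ± 0.20, SE, adjusted p = 0.0103). Its 2 probe sets gave -0.91 and -0.31, and with their mean it was -0.61 (limma adjusted p = 0.0431). The receptor gene Fzd9 is dim, with signals of 45.6, 61.9 and 36.03 against 12.6 and 22.3. Both knockout values lie under the filter level, the dashed line in the plot of signals by gene, so Fzd9 was tested through its wild-type arrays, and its fold change (-0.93 ± 0.24) ran from -1.42 to -0.45 with the pseudocount and other settings. The receptor gene Fzd2 had a fold change of -0.52 ± 0.16 and passed in 8 of 17 other settings. Its 3 probe sets ranged from -0.52 to -0.06, and the call was lost with their mean (-0.33, adjusted p = 0.395) and with median centring (adjusted p = 0.0861). The groups did not overlap in these 3 genes and in 4 of the 7 tested in all, against 46.7% of all genes tested. The calls fell to 0 without knockout replicate 1, and to 1 without knockout replicate 2 or wild-type replicate 3.

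Among ligands, co-receptors, glypicans and secreted antagonists, 12 of 15 were tested, and 2 fell, 1 rose and 9 did not pass (median -0.05). Sfrp2 and Sfrp1, secreted proteins that bind WNT ligands, fell. Sfrp2 had signals of 412, 284 and 388 in the wild-type and 67.8 and 84.2 in the knockout arrays (-2.03 ± 0.19, SE, adjusted p = 4.98e-05). Sfrp1 had a fold change of -1.08 ± 0.24. Its 4 probe sets ranged from -1.08 to -0.02, and with their mean it was -0.55 (limma adjusted p = 0.042). Ryk, a WNT co-receptor, rose from 179, 173 and 182 to 308 and 235 (0.56 ± 0.17, adjusted p = 0.0452). With the mean of its 2 probe sets it did not pass (0.38, limma adjusted p = 0.15). The call of Ryk was lost without any 1 of the 5 arrays, and of the 2 lower calls 1 remained without knockout replicate 2. The ligand genes Wnt5a and Wnt11 and the receptor gene Ror2, which act in this branch of WNT signalling, had fold changes of -0.02 ± 0.18, 0.01 ± 0.22 and -0.09 ± 0.20, none past the threshold, and their signs turned in some settings.

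Of the effectors, 17 were tested, and 2 rose, 1 fell and 14 did not pass (median -0.02), a share near the 15% called over all genes. Arhgef12, an exchange factor that activates RhoA, fell from 625, 901 and 757 to 344 and 398 (-0.99 ± 0.17, SE, adjusted p = 0.00283). Myh9, a non-muscle myosin heavy chain gene, rose from 429, 328 and 343 to 606 and 636 (0.74 ± 0.16, adjusted p = 0.00942), and the myosin light chain gene Myl9 had a fold change of 0.72 ± 0.17. Of the 4 probe sets of Myh9, 1 had a fold change of -0.01. With the probe sets of a gene averaged, the calls of Arhgef12 (-0.63, adjusted p = 0.0557) and Myh9 (0.38, adjusted p = 0.0792) were lost. Both higher calls were also lost without either knockout array, with fold changes of like size: Myh9 had 0.78 and 0.71 (adjusted p = 0.0667 and 0.0656) and Myl9 0.79 and 0.65 (adjusted p = 0.0942 and 0.123) without replicate 1 and 2. The call of Myl9 was lost without wild-type replicate 3 as well. The GTPase genes Rhoa (-0.05 ± 0.14) and Rac1 (-0.39 ± 0.13, adjusted p = 0.0756) did not pass, nor did Shroom3 (-0.13 ± 0.16), whose product constricts the apical side of neural plate cells. The other 2 probe sets of Rac1 had fold changes above 0.

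Among trafficking and adaptor partners, limma called 0 of 13 (median -0.16), with 1 at an unadjusted p under 0.05. The 2 with the smallest p were Csnk1e, a kinase gene that acts on Dishevelled (-0.42 ± 0.16, adjusted p = 0.0919; its other probe set had 0.11), and Gipc1 (-0.57 ± 0.26, adjusted p = 0.172), which passed without knockout replicate 2 (-1.03). Fjx1, the tested gene of the Fat and Dachsous branch, gave -0.51 ± 0.17 (adjusted p = 0.0639), and passed with quantile normalization (-0.55, adjusted p = 0.0466) and array weights (-0.53, adjusted p = 0.0398). With the mean of its 2 probe sets it was 0.16, where the second is dim, its higher group mean 19.0. Of the ciliary effectors 3 were tested and limma called 0, with 0 at an unadjusted p under 0.05, Ift88 (-0.33 ± 0.18) and Kif3a (-0.27 ± 0.21) among them.

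Apicobasal polarity genes had 5 higher, 2 lower and 10 not passing among 17 tested (median -0.06), where 15% of all genes tested passed. Prkcz, an atypical protein kinase C gene, had signals of 30.7, 29.7 and 41.2 in the wild-type and 92.9 and 66.1 in the knockout arrays (0.93 ± 0.21, SE, adjusted p = 0.0128). Patj, a scaffold gene of the Crumbs complex, rose by 0.83 ± 0.17 and Pard6g, of the Par complex, had a fold change of -0.79 ± 0.19. With averaged probe sets the calls of Prkcz (0.56, adjusted p = 0.0983) and Pard6g (-0.27, adjusted p = 0.359) were lost. The other of the 2 Pard6g probe sets is dim, its higher group mean 10.2. The other calls were Llgl2, Pard6b and Dlg5 higher and Erbin lower. The 5 higher calls became 3 without wild-type replicate 1, 2 without wild-type replicate 3, 0 without knockout replicate 1 and 3 without knockout replicate 2, and the 2 lower calls became 0 without wild-type replicate 3 or knockout replicate 1. Dlg1 and Llgl1, whose products form a complex with Scrib, did not pass (-0.17 ± 0.18 and -0.41 ± 0.15).

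**Figure D5:**
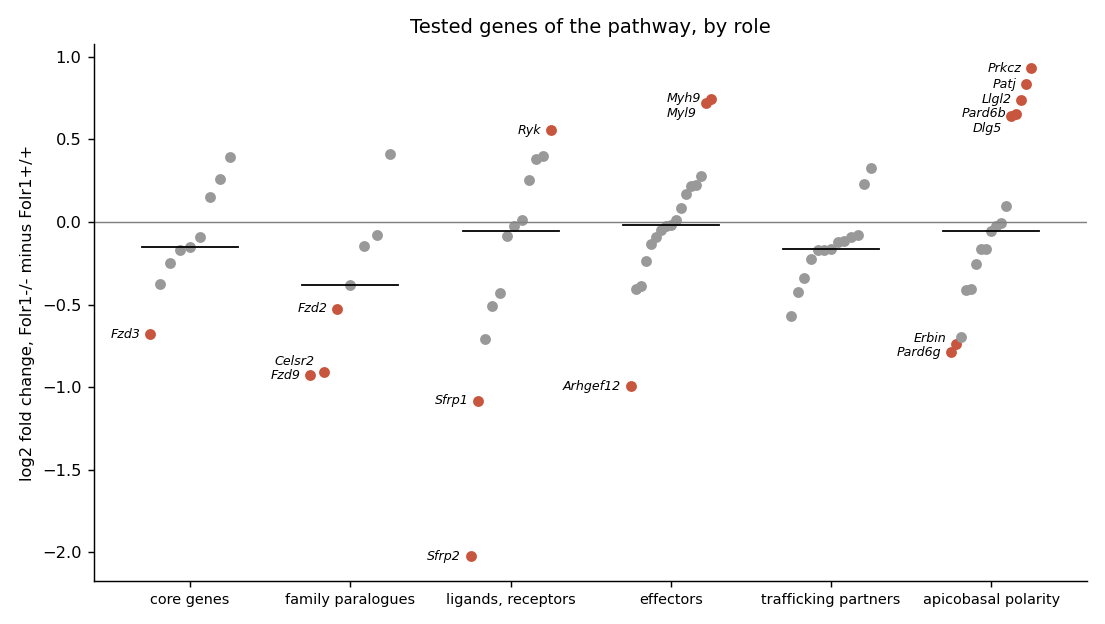
Log2 fold change (knockout minus wild type) of each tested gene in 6 groups of the pathway, each point 1 gene, red where the limma adjusted p was under 0.05 and named there, with the median as a line. Fzd3 is the one red point among the core genes, and the apicobasal genes have red points on both sides of 0.

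Markers of several tissues differed between the same arrays, where 15% of all genes tested passed. These lists were chosen with earlier results of these data known, so their counts are a description and no test against that share. Of 15 tested neural plate and neural tube markers, 12 fell, 0 rose and 3 did not pass (median -1.19). Summed signals here are over all genes of a list on the array, also those under the filter. For the 17 neural markers on the array the sum was 2789 to 3109 in the wild-type and 1135 to 1253 in the knockout arrays. Zic1, Hes5 and Pax6 had fold changes of -2.82, -2.17 and -1.84, all larger in size than that of Fzd3. With averaged probe sets Pax6 did not pass (-0.34, adjusted p = 0.0979). Of its 5 probe sets, the 2 with fold changes above 0 are dim, their highest group mean 14.3. All 16 tested visceral endoderm markers rose (median 2.47), with a summed signal of 2591 to 3648 against 18205 to 18211, led by Apoa4, Apom and Ctsh at 3.18, 2.85 and 2.81. The list of surface ectoderm and general epithelial markers had 6 higher and 2 lower of 11 tested (median 1.04). Its sum over the 12 on the array was 2130 to 2807 against 6084 to 6866. The higher ones were the keratin genes Krt18, Krt8 and Krt19 at 1.82, 1.72 and 1.43, and the adhesion and junction genes Cdh1, Epcam and Cldn6. Which tissue their signal came from was not tested. The 2 lower were the transcription factor genes Trp63 (-0.99, adjusted p = 0.0135) and Tfap2a (-0.67, adjusted p = 0.0225). The lower calls became 0 without wild-type replicate 3 or either knockout array, and the median was 0.64 without knockout replicate 1. Primitive erythroid markers had 7 lower of 8 (median -1.89; summed 5462 to 6421 against 204 to 621), with Hbb-y, Hbb-bh1 and Hba-x at -4.87, -3.74 and -2.71. Of 3 tested trophoblast and decidua markers 2 passed (sum over the 6 on the array 186 to 212 against 398 to 503). Plac1 rose by 1.30. Prl8a2 had signals of 15.3, 13.6 and 23.2 against 143 and 34.6, all but the first knockout value near or under the filter level, and its fold change of 1.44 was 0.61 (adjusted p = 0.306) without knockout replicate 1. Its call was lost without each wild-type array too. The knockout means of Zic1, Hes5, Pax6 and Hba-x also lie under the filter level, so these genes were tested through their wild-type arrays. None of these markers was listed at 0. Their part in the values of Fzd3 and the other polarity genes was not tested.

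The Folr1 probe set did not separate the groups (-0.07 ± 0.20, SE, adjusted p = 0.858), and the deleted part of the gene is not named in the labels, so this probe set is no check of the genotype and directions rest on the labels. Xist was higher (3.68) and the Y-linked Eif2s3y (-2.88) and Kdm5d (-2.20) lower in the knockout arrays, and knockout replicate 1 held both kinds of signal. None of the 10 polarity genes is X- or Y-linked in the gene table, but an effect of sex on them and one of genotype cannot be told apart here. The ratio of Actb 3' to 5' signal, a measure of RNA shortening, was 21.1 to 39.5 in the wild-type and 22.8 and 30.5 in the knockout arrays. With it as a covariate Fzd3 passed (-0.60, limma adjusted p = 0.0314), in a fit where 1311 of all genes passed in place of 1114.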

How the data were processed

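Total RNA of whole embryos was amplified in 2 rounds, labelled with biotin and hybridised to Affymetrix Mouse Genome 430A arrays, per the labels' protocols. Such amplification enriches sequence near the 3' end. Per the submitters' processing notes MAS5 was used, and each deposited value is a linear signal intensity of 1 probe set, scaled by the authors so that trimmed means are equal. Detection calls were not used here. The number of arrays limits the precision.

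Of 22690 probe sets, 64 controls, 691 with several symbols and 1555 not named in the platform annotation were left out. From the other 20380, 12393 genes each took the probe set of highest mean log2(signal + 16), and genes under the 40th percentile of that mean were left out. All 7436 remaining genes were fitted with limma 3.58.1 in R 4.3.3 (lmFit, trended eBayes), p-values were adjusted over all of them by Benjamini-Hochberg, and the threshold was 0.05. Fold changes understate the change of dim genes. Within-array ratios of 3 pairs were compared by an exact permutation test. The code was tested on simulated data.

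The members and lists were chosen with earlier results of these data known. All 10 members are named with every probe set. From each list up to 3 genes past the threshold with the largest change are named, or else 2 with the smallest p. Wnt5a, Wnt11, Ror2, Rhoa, Rac1, Shroom3, Dlg1, Llgl1, Trp63, Tfap2a and the remaining apicobasal calls were chosen after their values were seen. Alternatives were pseudocounts of 1 and 64, no filter or one at the 60th percentile, averaged probe sets, median centring, quantile normalization, no trend, array weights, a replicate block, the Actb ratio as a covariate, no sex-linked genes and each array left out.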

Additional observations from a re-analysis of the deposited data

How the results depend on the processing

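The number of polarity genes past the threshold was 0 in place of 1 with no filter, with median centring and with the replicate block, and 0 to 1 when each array was left out. The cause was not tested. With no filter 12393 genes were adjusted over, and the unadjusted limma p of Fzd3 was 0.0105 in place of 0.00557. In the replicate block wild-type replicate 3 is alone in its block, so it does not enter the fold change. Each fit without an array had fewer arrays. Deviations of same-numbered arrays from their group means correlated at 0.019 and -0.056 over genes. The deviations of the knockout arrays are equal and opposite by construction, so these correlations are not independent. They cannot show whether same-numbered arrays shared any processing, which was not tested. With the replicate block 899 genes passed in place of 1114, with Fzd3 at a limma adjusted p of 0.0835. When each array was left out, the number of all genes past the threshold was 369 to 1007, lowest without knockout replicate 1. The number of polarity genes whose groups did not overlap was then 4 to 7, and fewer arrays separate more easily; their median was -0.24 to -0.0084. The fold changes of 6 of the 9 genes kept their sign in every setting. The filter settings, no trend and no sex-linked genes cannot change the fold change of a gene that stays in the fit.

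Fold changes that did not pass turned sign as follows. With averaged probe sets they were 0.0071 for Dvl1, 0.16 for Fjx1 and 0.085 for Wnt5a. With median centring they were 0.0028 for Dvl1, 0.067 for Wnt5a, 0.0060 for Ror2 and 0.045 for Rhoa. With the replicate block they were 0.019 for Dvl1, 0.0058 for Wnt5a and -0.091 for Wnt11. These equal the values without wild-type replicate 3, which is alone in its block, so they are not a further result. When each array was left out, the ranges were -0.33 to 0.025 for Vangl2, -0.15 to 0.45 for Fzd6, -0.29 to 0.12 for Dvl1, -0.58 to 0.044 for Kif3a, -0.26 to 0.21 for Wnt5a, -0.18 to 0.20 for Wnt11, -0.26 to 0.041 for Ror2 and -0.11 to 0.014 for Rhoa. The change of the Dvl1 to Dvl2 ratio was then -0.052 to 0.63. A dim signal limits Ptk7 and Vangl2 most.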
